A study of Arabidopsis thaliana with 15 samples.

Results

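The brs1-1D suppressor line was compared with its bri1-5 parent across all probe sets of an Affymetrix ATH1 array that gave usable values. The comparison used 6 of the 15 arrays of the study, 3 of the bri1-5/brs1-1D line and 3 of bri1-5. Of 22810 probe sets, 15912 were tested. These had a log2 value above 4 on at least 3 of the 15 arrays, and array controls were left out. RNA came from whole Arabidopsis thaliana seedlings, grown 5 days in light on a solid medium with sucrose and then frozen.

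The groups were bri1-5/brs1-1D (called brs1-1D below), bri1-5/bak1-1D (bak1-1D), bri1-5/bri1-1D (bri1-1D), bri1-5 alone and the wild type WS2. Every suppressor line therefore also carries bri1-5, and the labels give WS2 as the ecotype of the background. The design text gives 3 biological replicates for each genotype, so p-values measure the spread between those samples. How many plants made a sample, and whether brs1-1D is a single transformant line, is not given in the sources used here.

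Brassinosteroids are plant steroid hormones that bind the receptor kinase BRI1 at the cell surface and, through it and the co-receptor BAK1, promote cell elongation. The bri1-5 allele is a weak loss-of-function allele that dwarfs the plant. BRS1 codes for a secreted serine carboxypeptidase-like protein, and brs1-1D is a dominant allele found by activation tagging, in which an inserted enhancer raises transcription near its site. The line was isolated because it partly restores the growth of bri1-5, and the comparison asks which transcripts differ when it is added to that mutant.

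No probe set was listed for BRS1 or BRI1, so neither gene's own transcript was read by name. Array medians over the tested probe sets ran from 6.75 to 6.82, and values ran from 2.01 to 13.5 on the log2 scale. Across probe sets, which are not independent replicates, arrays correlated at 0.992 to 0.993 within brs1-1D and 0.991 to 0.995 within bri1-5. Between the 2 genotypes the correlations were 0.986 to 0.991. Green tissue was present in both groups: RCA, the activase of the carbon-fixing enzyme Rubisco, ran from 13.10 to 13.28 in brs1-1D and from 13.19 to 13.24 in bri1-5.

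In brs1-1D 273 probe sets, or 1.72% of those tested, differed from bri1-5 at a Benjamini-Hochberg adjusted p under 0.05 by limma. Such probe sets are called below. Of these, 188 (1.18%) were higher and 85 (0.534%) were lower. A further cut at 2-fold kept 31 (0.195%), 29 higher and 2 lower. The median size of a called difference was 0.57 on the log2 scale, against 0.10 over all tested probe sets, and the smallest was 0.33. An unadjusted p under 0.05 was reached by 16.1% of tested probe sets, against which the counts of such p-values below are to be read. In all 273 the brs1-1D and bri1-5 arrays did not overlap, an arrangement that 9.77% of tested probe sets showed with brs1-1D above and 10.4% with brs1-1D below. The count was 410 with a replicate block, a paired fit by replicate number, and ran from 112 to 282 when 1 of the 6 arrays was left out. It was lowest without brs1-1D replicate 2 (112), and it was 132 without bri1-5 replicate 3, 139 without brs1-1D replicate 3 and 170 without bri1-5 replicate 1.

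Genes could be named for 127 of the called probe sets, 80 higher and 47 lower. The platform table gave 28 of them a symbol and 99 only a locus code. Another 144 called probe sets, 107 higher and 37 lower, had no listed gene, and 2 had several. Of tested probe sets with 1 gene 1.47% were called, and of those with no listed gene 2.08%. By chromosome the called share of tested genes ran from 1.1% (chromosome 2) to 1.67% (chromosome 4).

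**Figure D1:**
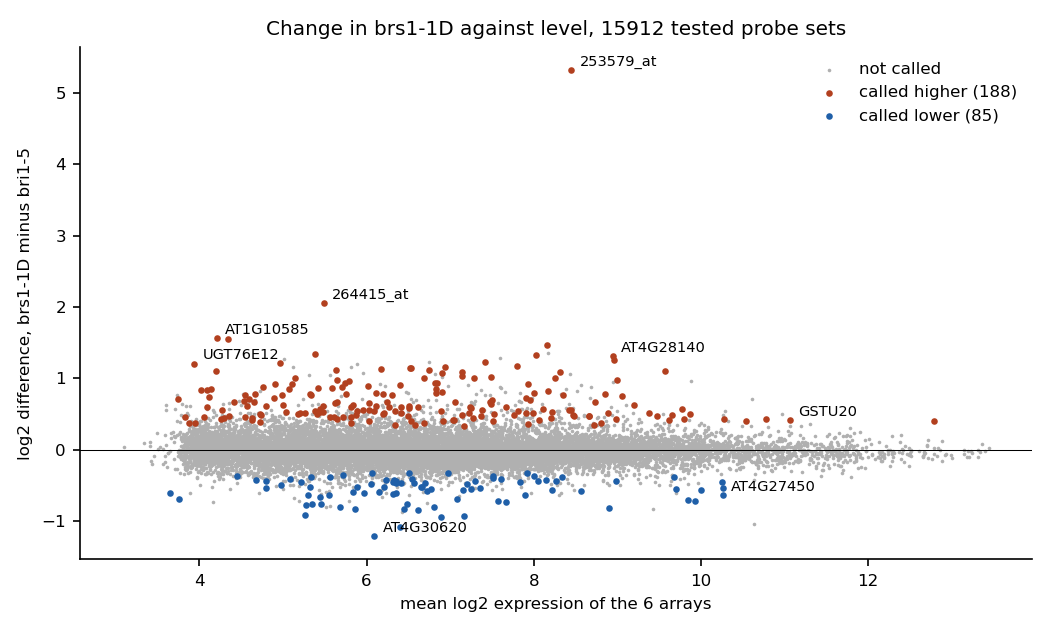
Each point is 1 of 15912 tested probe sets. The horizontal axis is its mean log2 expression over the 6 arrays and the vertical axis its log2 difference, brs1-1D minus bri1-5. Called rises (188, red) and falls (85, blue) lie on both sides of the uncalled points (grey), and 253579_at stands alone at 5.32.

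One probe set, 253579_at, exceeded every other difference. It read 11.20, 11.15 and 10.98 on the brs1-1D arrays, against 5.75, 5.76 and 5.86 on the bri1-5 arrays. The groups lay 5.11 log2 units apart at their closest arrays. The difference was 5.32 ± 0.08 (SE, n = 3 each, adjusted p = 5.12e-17), or 39.9-fold. In the other genotypes this probe set averaged 5.94 in bak1-1D, 5.66 in bri1-1D and 6.49 in WS2, and the differences of brs1-1D from these were 5.17, 5.45 and 4.61, each called. Over all tested probe sets 7.98% were called between brs1-1D and bak1-1D, 2.17% between brs1-1D and bri1-1D and 20.4% between brs1-1D and WS2. These comparisons reuse the brs1-1D arrays by which nearly all probe sets named here were chosen. Calls in them, here and below, are therefore no separate support. The probe set 253579_at has no listed gene. Among the other probe sets named here, those whose values over the 15 arrays followed it most closely were AT3G61930 (Pearson r = 0.894), UGT74B1 (0.885), 259329_at (0.874), AT3G13610 (0.872) and AT1G73040 (0.839). These correlations are a description over 15 arrays that share 5 genotypes. The probe sets compared were nearly all chosen for a call in brs1-1D against bri1-5, and 253579_at is high in that line alone. High correlations therefore follow in part from the choice and are no separate support.

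Other probe sets without a listed gene followed at some distance. The probe set 264415_at read 6.62, 6.61 and 6.32 in brs1-1D, against 4.93, 4.02 and 4.43 in bri1-5, a difference of 2.06 ± 0.37. For 259329_at the difference was 1.56 ± 0.27 and the brs1-1D arrays themselves spread from 4.41 to 5.99. This probe set read above 4 on the brs1-1D arrays only, so it passed the filter through that group alone. With values under 4 set to 4 its difference was 1.13. In 260203_at the difference was 1.47 ± 0.24. The largest falls of this kind were those of 247406_at (-0.85 ± 0.11), 254174_at (-0.83 ± 0.12) and 258487_at (-0.82 ± 0.16).

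Genes for enzymes that attach sugars or glutathione to small molecules were among the named rises. UGT76E12, a member of the UDP-glycosyltransferase (UGT) family, read 4.58, 5.02 and 4.03 in brs1-1D, against 3.56, 3.22 and 3.23 in bri1-5. Every brs1-1D array lay above every bri1-5 array, and the difference was 1.21 ± 0.23 (adjusted p = 0.0153). Its family member UGT76E11 read 7.33, 7.49 and 7.11 in brs1-1D, against 6.76, 5.69 and 6.14 in bri1-5, and the difference was 1.11 ± 0.22 (adjusted p = 0.0163). UGT74B1, which glucosylates a precursor in the synthesis of glucosinolates (sulfur-rich defence compounds), rose by 0.47 ± 0.08. All 3 of its brs1-1D arrays (8.79 to 8.99) lay above its bri1-5 arrays (8.38 to 8.47).

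Of 47 UGT genes with a probe set 35 were tested, 3 were called higher (1.18% over all tested probe sets) and 0 lower by limma, and 10 had an unadjusted p under 0.05 (16.1% over all). The median over the 35 was 0.14, against -0.02 over all tested probe sets, with 29 differences above 0 and 6 below. Without brs1-1D replicate 2 the median was 0.084 and 0 members were called by limma, and without bri1-5 replicate 2 or 3 there was 1 call. Members that were not called included UGT73D1 (0.39 ± 0.09, adjusted p = 0.0509, or 0.044 with the replicate block) and UGT73B4 (0.37 ± 0.10, 0.0678). The calls of UGT76E12 and UGT76E11 were lost without bri1-5 replicate 2, bri1-5 replicate 3 or brs1-1D replicate 2 (adjusted p up to 0.0733 and 0.0757). That of UGT74B1 was lost without brs1-1D replicate 2 (0.0514). UGT76E12, among the 3 calls, read above 4 outside brs1-1D only on bri1-1D replicate 1 (4.34). It therefore passed the filter through brs1-1D, where it is high. With values under 4 set to 4, the difference of UGT76E12 was 0.54 (adjusted p = 0.105).

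Tau-class glutathione transferases (GSTU) couple glutathione to reactive compounds. GSTU25 read 5.83, 5.31 and 5.80 in brs1-1D, against 4.47, 4.74 and 4.71 in bri1-5. The groups did not overlap and the difference was 1.00 ± 0.17 (adjusted p = 0.0085). GSTU22 read 5.12, 4.65 and 5.04 in brs1-1D, against 3.97, 4.21 and 4.31 in bri1-5, with a difference of 0.77 ± 0.13 (adjusted p = 0.00841). GSTU20 rose by 0.41 ± 0.09 (adjusted p = 0.0365), a call lost without bri1-5 replicate 1 or 3 or without any 1 brs1-1D array (adjusted p up to 0.131). GSTU25 and GSTU22 remained called whichever of the 6 arrays was left out. Of 10 tested members these 3 were called higher (1.18% over all tested probe sets) and 0 lower by limma. An unadjusted p under 0.05 was reached by 6 of the 10 (16.1% over all). The other 7 ran from -0.22 (GSTU23) to 0.36 (GSTU28), and the family median was 0.19. With the filter at log2 above 6, which leaves fewer members, the median was 0.097 and 1 member was called.

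Further called rises were those of GRX480, OPCL1 and JAL23. GRX480, a glutaredoxin that binds TGA transcription factors, read 6.26, 6.39 and 6.17 in brs1-1D, against 5.05, 5.62 and 5.28 in bri1-5. All brs1-1D arrays were higher, by 0.96 ± 0.16 on average (adjusted p = 0.00805). OPCL1, a CoA ligase of jasmonate synthesis, read 8.71, 8.60 and 8.91 in brs1-1D, against 8.08, 7.86 and 7.98 in bri1-5, a rise of 0.77 ± 0.15. The jacalin-related lectin gene JAL23 read 6.78, 7.17 and 7.34 in brs1-1D, against 5.17, 6.66 and 6.05 in bri1-5. Its groups were only 0.12 apart at their closest arrays, since bri1-5 replicate 2 was high, and the difference was 1.14 ± 0.27 (adjusted p = 0.0406). With the replicate block JAL23 was not called (adjusted p = 0.053). The other 3 JAL genes tested ran from 0.15 to 0.20 and were not called.

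Leaving out single arrays ended the call of JAL23 (without bri1-5 replicate 1 or 3, or brs1-1D replicate 2 or 3, adjusted p up to 0.128) and of OPCL1 (without bri1-5 replicate 2 or 3, or brs1-1D replicate 3, up to 0.0783). GRX480 was called in each of these fits. The 2 tested jasmonate-responsive genes were not called: the defensin gene PDF1.2 read 10.01, 10.56 and 10.51 in brs1-1D, against 8.54, 9.98 and 9.66 in bri1-5 (0.97 ± 0.35, adjusted p = 0.164), and THI2.1 differed by 0.07 ± 0.17. Of 5 tested genes of salicylic acid and pattern-triggered defence, which include WRKY53, WRKY22, EFR and BIK1, 0 were called by limma and 0 had an unadjusted p under 0.05. Their median was -0.09. In the list for chemical and oxidative stress GSTU25 was the single call among 5 tested members (1.72% over all tested probe sets). The median of the 5 was 0.29.

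**Figure D2:**
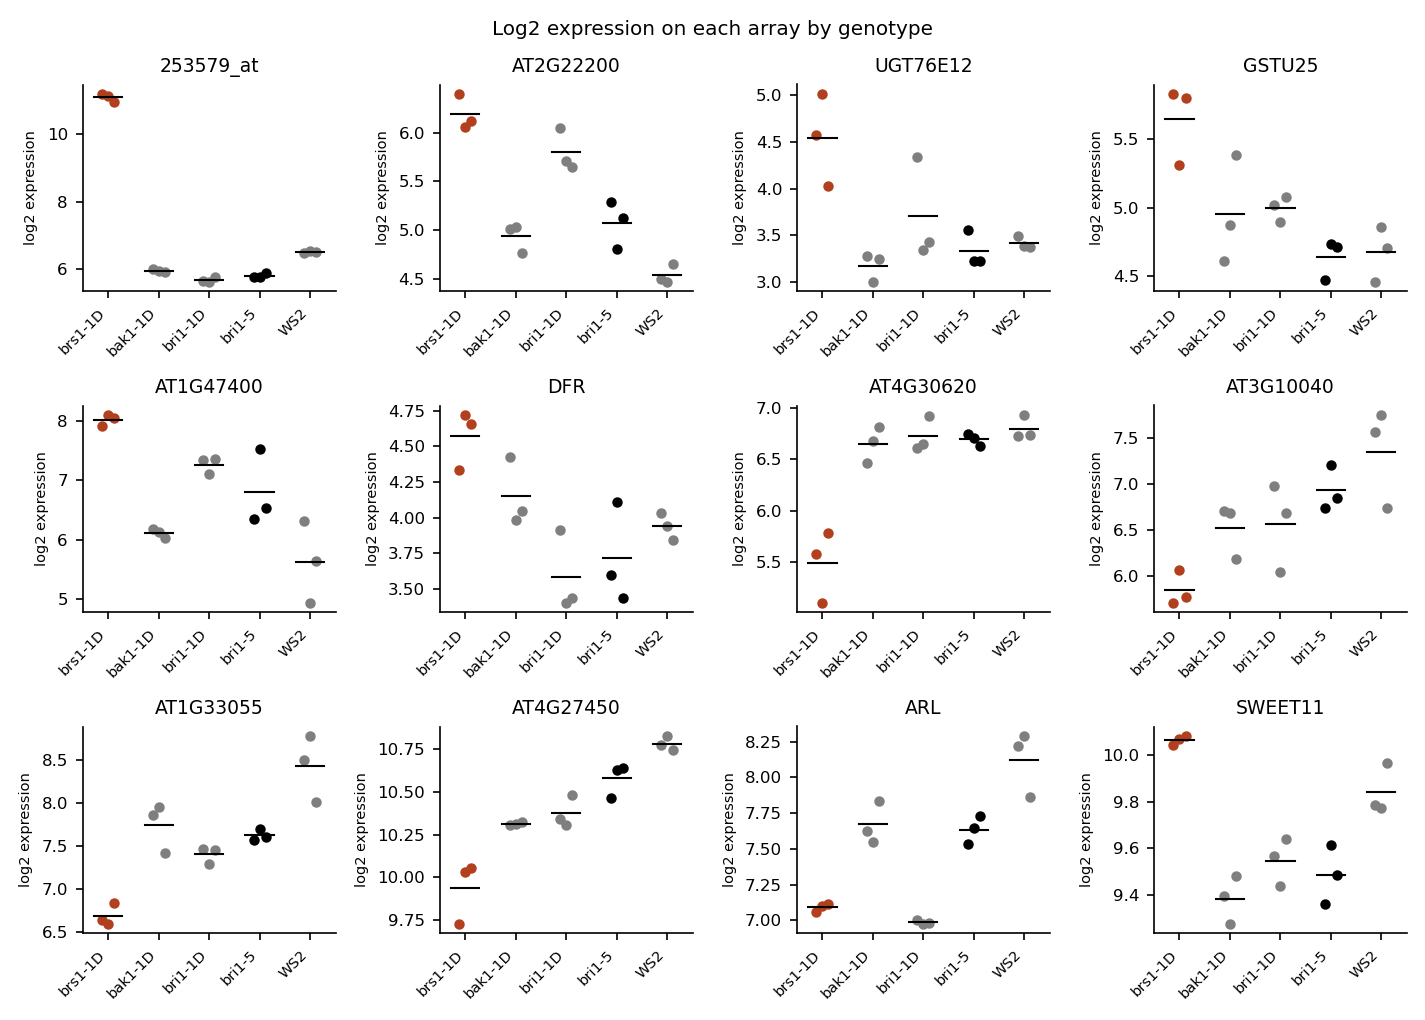
Log2 expression (vertical axes, scaled per gene) of 12 probe sets on each array, by genotype along the horizontal axis. Each point is 1 array and each line the mean of 3. In brs1-1D (red) 253579_at lies between 10.98 and 11.20, and AT4G30620 between 5.10 and 5.78, apart from all 12 other arrays.

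Of 5 tested iron-deficiency genes 2 rose in brs1-1D. Plants short of iron secrete coumarins and switch on regulators of iron uptake. AT3G13610, listed also as F6'H1, codes for the hydroxylase that opens coumarin synthesis, and it read 9.09, 9.16 and 9.17 in brs1-1D, against 8.61, 8.62 and 8.66 in bri1-5. The arrays within each genotype lay close together, without overlap, and the difference was 0.51 ± 0.08 (adjusted p = 0.00684). AT3G13610 was called whichever of the 6 arrays was left out. In brs1-1D it was also above bak1-1D by 0.83 ± 0.08, bri1-1D by 0.58 ± 0.08 and WS2 by 0.51 ± 0.08, each called.

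Another member, AT1G47400, read 7.93, 8.11 and 8.05 in brs1-1D, against 6.35, 7.53 and 6.53 in bri1-5. The bri1-5 replicate 2 array was well above the other bri1-5 arrays and still below all brs1-1D arrays. Its difference was 1.23 ± 0.28 (adjusted p = 0.0389, or 0.053 with the replicate block). The call was lost without bri1-5 replicate 1 or 3, or without any 1 brs1-1D array (adjusted p up to 0.139). PYE, a transcription factor of the iron response, read 5.92, 5.90 and 6.06 in brs1-1D, against 5.14, 5.42 and 5.49 in bri1-5, a difference of 0.61 ± 0.16 that was not called (adjusted p = 0.0574) but was called with the replicate block (0.0204). AT1G74770 (0.50, 0.167) and AT1G18910 (0.14, 0.493) were not called either.

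Of the 31 listed iron genes 5 were tested, of which 2 were called higher (1.18% over all tested probe sets) and 0 lower by limma, and 4 had an unadjusted p under 0.05 (16.1% over all). In all 5 every brs1-1D array lay above every bri1-5 array, an arrangement seen in 9.77% of tested probe sets. The median of the 5 members, taken relative to the bri1-5 mean, was 0.52, 0.53 and 0.55 on the brs1-1D arrays, against -0.12, 0.08 and 0.03 on the bri1-5 arrays. On the WS2 arrays it was -0.36, -0.51 and -0.29. The list's median difference was 0.51, and between 1 and 2 members were called when 1 of the 6 arrays was left out. With the 6 arrays fitted alone 4 were called, in a fit that called 236 of all 15912 tested probe sets.

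Of 15 tested genes that low oxygen induces, 4 fell in brs1-1D. AT3G10040, listed also as HRA1 and known as an attenuator of the hypoxia response, read 5.71, 6.07 and 5.77 in brs1-1D, against 6.74, 7.21 and 6.86 in bri1-5. The groups did not overlap, and the fall was -1.08 ± 0.25 (adjusted p = 0.0389). AT1G33055 read 6.64, 6.60 and 6.84 in brs1-1D, against 7.58, 7.70 and 7.60 in bri1-5, a fall of -0.93 ± 0.16 (adjusted p = 0.00856). AT4G27450 read 9.73, 10.03 and 10.05 in brs1-1D, against 10.47, 10.63 and 10.64 in bri1-5 (-0.64 ± 0.09, adjusted p = 0.00159). The fourth called member, AT5G10040, fell by 0.60 ± 0.14 on the log2 scale (adjusted p = 0.0373). AT1G33055 and AT4G27450 were also called lower in brs1-1D than in bak1-1D (-1.05 and -0.38), bri1-1D (-0.71 and -0.44) and WS2 (-1.74 and -0.84). AT3G10040 was called lower than in WS2 (-1.50) but not than in bak1-1D (-0.67) or bri1-1D (-0.72). AT5G10040 was called lower than in bak1-1D (-0.63) and WS2 (-0.62) but not than in bri1-1D (-0.38).

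Of 32 listed hypoxia genes 15 were tested, with 0 called higher and 4 lower (0.534% over all tested probe sets), and 9 had an unadjusted p under 0.05 (16.1% over all). Differences ran from -1.08 to 0.22 and were below 0 in 13 of the 15. In 9 of them every brs1-1D array lay below every bri1-5 array, an arrangement seen in 10.4% of tested probe sets. The fermentation gene PDC2 (0.18 ± 0.13) and the calmodulin-like gene CML38 (0.22 ± 0.22) were above 0 and not called. Relative to the bri1-5 mean, the median of the 15 members was -0.61, -0.32 and -0.36 on the brs1-1D arrays, against -0.15, 0.22 and -0.05 on the bri1-5 arrays, and 0.34, 0.40 and 0.14 on the WS2 arrays. On the bak1-1D arrays this median was -0.23, -0.09 and -0.36, and on the bri1-1D arrays -0.02, -0.33 and 0.11. The bak1-1D replicate 3 and bri1-1D replicate 2 arrays thus lay within the range of the brs1-1D arrays.

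In 11 of the 15 hypoxia genes bri1-5 replicate 2 was the highest bri1-5 array, and the part of that array in the result was not tested beyond leaving it out. The list's median difference was -0.44, and it ran from -0.53 to -0.31 when 1 of the 6 arrays was left out, with 2 or 3 members called. AT1G33055 and AT4G27450 were called in every such fit. AT3G10040 was called in none of them (adjusted p up to 0.11), and AT5G10040 only without brs1-1D replicate 3 (otherwise up to 0.126).

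**Figure D3:**
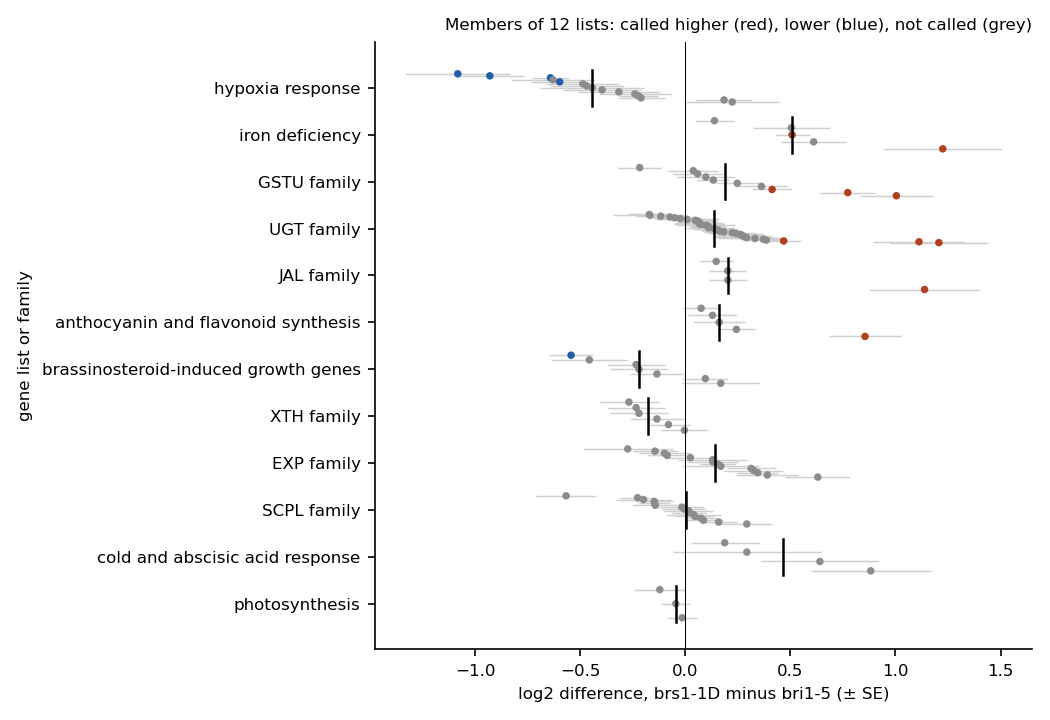
Log2 difference, brs1-1D minus bri1-5 (horizontal axis), of the tested members of 12 gene lists (rows). Points are genes with their SE, coloured by call, and black ticks are list medians. The hypoxia median lies at -0.44 and the iron median at 0.51, while the brassinosteroid-induced genes have a median of -0.22.

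In the lists of brassinosteroid genes 1 tested member was called. Of 17 listed genes that the hormone induces in growing tissue 7 were tested, with 0 called higher and 1 lower (0.534% over all tested probe sets). The call was ARL, an ARGOS-like gene that affects organ size, which read 7.06, 7.10 and 7.11 in brs1-1D, against 7.53, 7.65 and 7.73 in bri1-5. The highest brs1-1D array lay 0.42 below the lowest bri1-5 array and the fall was -0.54 ± 0.10 (adjusted p = 0.0138). It was not called without bri1-5 replicate 3 (adjusted p = 0.0659). In WS2 ARL averaged 8.12, and the difference of brs1-1D from WS2 was -1.03 ± 0.10.

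EXO, a secreted growth-promoting protein, read 6.73, 6.82 and 6.81 in brs1-1D, against 7.72, 6.94 and 7.07 in bri1-5, and was not called (-0.46 ± 0.18, adjusted p = 0.211). The highest bri1-5 array of EXO was replicate 1. The expansin EXPA8 (0.17 ± 0.18), the tubulin TUB1 (0.10 ± 0.11) and the cell wall enzymes XTH18 (-0.22 ± 0.14), XTH19 (-0.23 ± 0.14) and XTH33 (-0.14 ± 0.13) were not called. Relative to the bri1-5 mean, the median of the 7 members was -0.30, -0.04 and -0.22 on the brs1-1D arrays, against -0.02, 0.01 and 0.01 on the bri1-5 arrays. On the WS2 arrays it was 0.91, 1.19 and 1.17. The list's median difference was -0.22, and it was -0.13 without brs1-1D replicate 1 and -0.15 without bri1-5 replicate 1. On the bak1-1D arrays it was 0.36, 0.49 and 0.71, and on the bri1-1D arrays -0.13, -0.11 and 0.12.

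The signalling genes BIM1 (0.27) and BRL1 (0.12) and the inactivation gene BAT1 (-0.07) were the only tested members of the lists for brassinosteroid signalling (20 genes) and for synthesis and inactivation (15 genes). By limma 0 of the 3 were called, and 1 had an unadjusted p under 0.05. In the serine carboxypeptidase-like family, to which BRS1 belongs, 16 of 29 genes were tested and limma called 0, while 3 had an unadjusted p under 0.05, a share near the 16.1% of all tested probe sets. The nearest to a call was scpl31 (-0.57 ± 0.14, adjusted p = 0.0541), which was called with the replicate block (0.0351). The 6 tested XTH genes all had differences below 0 (median -0.18) and the 14 tested expansin genes had a median of 0.14. In both families limma called 0, and 0 XTH genes but 5 expansin genes had an unadjusted p under 0.05 (16.1% over all tested probe sets).

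Flavonoid synthesis gave 1 call, a rise, among 5 tested genes of 29 listed (1.18% called higher over all tested probe sets). DFR, the reductase that leads to anthocyanin pigments, read 4.34, 4.72 and 4.65 in brs1-1D, against 3.60, 4.11 and 3.44 in bri1-5. It rose by 0.86 ± 0.17 (adjusted p = 0.019). The other 4, UGT78D1 (0.24), UF3GT (0.16), CHIL (0.13) and UGT78D2 (0.08), were not called. The DFR call was lost without bri1-5 replicate 1 or 3, or brs1-1D replicate 2 or 3 (adjusted p up to 0.0871), and with values under 4 set to 4 the difference was 0.53. The 4 tested cold-regulated genes were not called, COR15B at 0.88 ± 0.29 and COR15A at 0.64 ± 0.28 having the largest differences. In both, bri1-5 replicate 1 (9.12 and 8.60) lay within the range of the brs1-1D arrays (8.82 to 9.32 and 8.04 to 8.70).

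Among the largest named rises several loci carry no symbol in the files. AT1G10585 read 4.68, 5.66 and 4.63 in brs1-1D, against 3.59, 3.48 and 3.20 in bri1-5, and AT2G22200 read 6.40, 6.06 and 6.12 in brs1-1D, against 5.29, 4.81 and 5.12 in bri1-5. Both pairs of groups were apart, by 1.03 and 0.77 log2 units at their closest arrays. AT2G22200 rose by 1.12 ± 0.13 (adjusted p = 6.89e-04) and was called in every alternative fit that gave a value. AT1G10585 (1.56 ± 0.32, adjusted p = 0.019) lost its call without bri1-5 replicate 3 or brs1-1D replicate 2 (up to 0.0838). It also lost it with values under 4 set to 4 (0.99, adjusted p = 0.051). Outside brs1-1D, AT1G10585 read above 4 only on bri1-1D replicate 1 (4.94), so it passed the filter through brs1-1D. AT3G61930 read 4.49, 4.64 and 5.12 in brs1-1D, against 3.44, 3.70 and 3.81 in bri1-5 (1.10 ± 0.15, adjusted p = 0.00142). Its brs1-1D level was also above bak1-1D (by 1.11), bri1-1D (0.90) and WS2 (0.98), each called. AT3G61930 read above 4 on the brs1-1D arrays only, so it passed the filter through that group alone. With values under 4 set to 4 its rise over bri1-5 was 0.75.

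AT4G28140 and AT5G53710 were also called higher in brs1-1D than in WS2, by 2.58 and 2.80. AT4G28140 averaged 9.60 ± 0.17 in brs1-1D and 8.29 ± 0.44 in bri1-5 (SD, n = 3 each), with 7.03 ± 0.69 in WS2. AT5G53710 averaged 7.09 ± 0.32 in brs1-1D and 5.95 ± 0.47 in bri1-5, with 4.30 ± 0.57 in WS2. The differences of brs1-1D from bri1-5 were 1.32 ± 0.27 (adjusted p = 0.0207) and 1.14 ± 0.27 (0.0398), and both calls were lost without bri1-5 replicate 2 or 3, or brs1-1D replicate 2 or 3 (up to 0.0812 and 0.138). The bri1-1D line lay near brs1-1D for both, with differences of 0.02 ± 0.27 and 0.20 ± 0.27 that were not called.

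Further rises among the 25 largest were those of loci without a symbol. AT1G72230 read 6.54, 6.51 and 6.50 in brs1-1D, against 5.82, 5.74 and 5.59 in bri1-5. The groups did not overlap and the rise was 0.80 ± 0.10 (adjusted p = 0.00107). AT2G31940 read 5.22, 5.36 and 5.54 in brs1-1D, against 4.71, 4.36 and 4.26 in bri1-5 (0.93 ± 0.14, adjusted p = 0.00308). Both were called whichever of the 6 arrays was left out. AT5G05600 (1.02) had brs1-1D arrays at 7.97 to 8.01, against 6.66 to 7.15 in bri1-5, and its call was lost without bri1-5 replicate 2 or brs1-1D replicate 2 or 3 (adjusted p up to 0.0753). The others were AT1G19960 (0.93), AT5G12340 (0.87), AT2G38240 (0.86), AT4G29570 (0.83), AT5G19875 (0.79), AT1G73040, AT2G34810 and AT4G10390 (0.78 each). Each of them lost its call without 1 or more of the 6 arrays, with adjusted p up to 0.139 (AT1G19960). AT4G29570 read above 4 on the brs1-1D arrays only, so it passed the filter through that group alone. With values under 4 set to 4 its difference was 0.50.

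**Figure D4:**
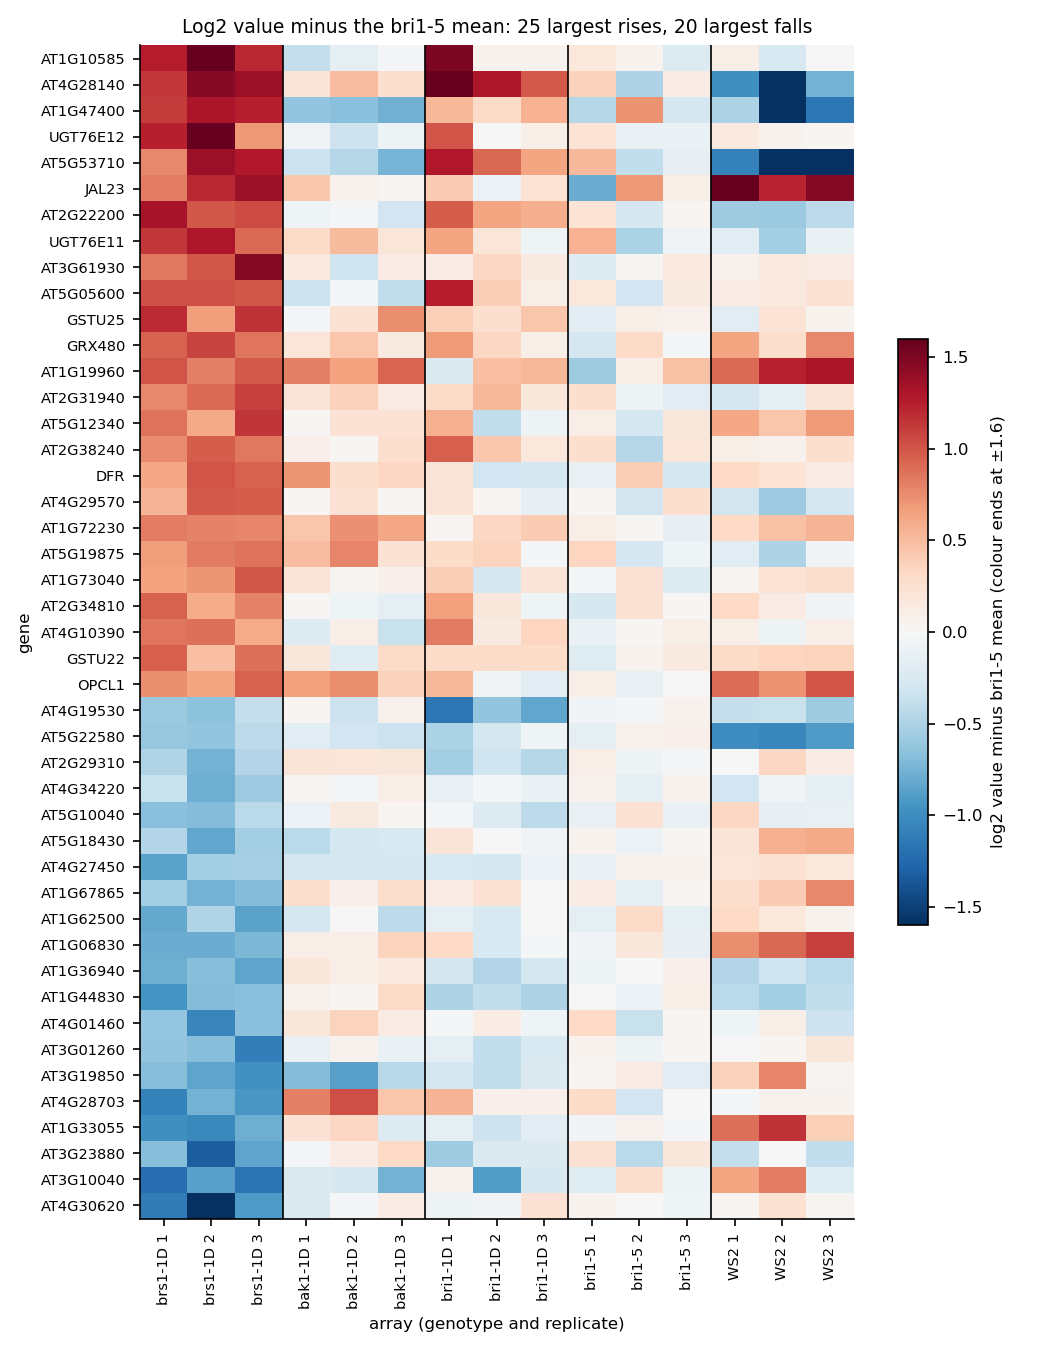
Log2 value minus the bri1-5 mean (colour) of the 25 largest rises and 20 largest falls among called probe sets with 1 gene (rows) on each of the 15 arrays (columns, by genotype and replicate). The choice of genes fixes the sign of the brs1-1D columns, and colours end at ±1.6. WS2 matches the sign of brs1-1D in some rows, such as JAL23 and OPCL1, and opposes it in others, such as AT4G28140 and AT5G53710.

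The largest named fall was that of AT4G30620, which read 5.58, 5.10 and 5.78 in brs1-1D, against 6.75, 6.71 and 6.63 in bri1-5. The highest brs1-1D array lay 0.85 below the lowest bri1-5 array. The difference was -1.21 ± 0.14 (adjusted p = 6.89e-04), and brs1-1D was also called lower than bak1-1D (-1.17), bri1-1D (-1.24) and WS2 (-1.31). In the gene order of the RefSeq table this locus lies 2 genes from BRS1. Of 17 tested genes within 25 genes on each side of BRS1, 2 were called, against 1.67% of tested genes on chromosome 4. The second was AT4G30470, 15 genes away on the other side, which read 8.65, 8.84 and 8.65 in brs1-1D, against 8.27, 8.17 and 8.29 in bri1-5, a rise of 0.47 ± 0.10 (adjusted p = 0.02).

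The nearest tested neighbour, AT4G30600, is 1 gene away and read 10.30, 10.21 and 10.04 in brs1-1D, against 9.85, 9.73 and 9.87 in bri1-5. All brs1-1D arrays were higher, by 0.37 ± 0.11 on average, which was not called (adjusted p = 0.0889) but was called with the replicate block (0.0441). On the side of AT4G30620 the next tested genes were AT4G30630 (-0.02 ± 0.09), AT4G30640 (-0.10 ± 0.10), AT4G30650 (0.19 ± 0.15) and AT4G30660 (-0.11 ± 0.10), and 0 of these 4 were called by limma or had an unadjusted p under 0.05. On the side of AT4G30470 the others were AT4G30460 (-0.08), AT4G30490 (0.14) and AT4G30500 (0.11), also not called.

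**Figure D5:**
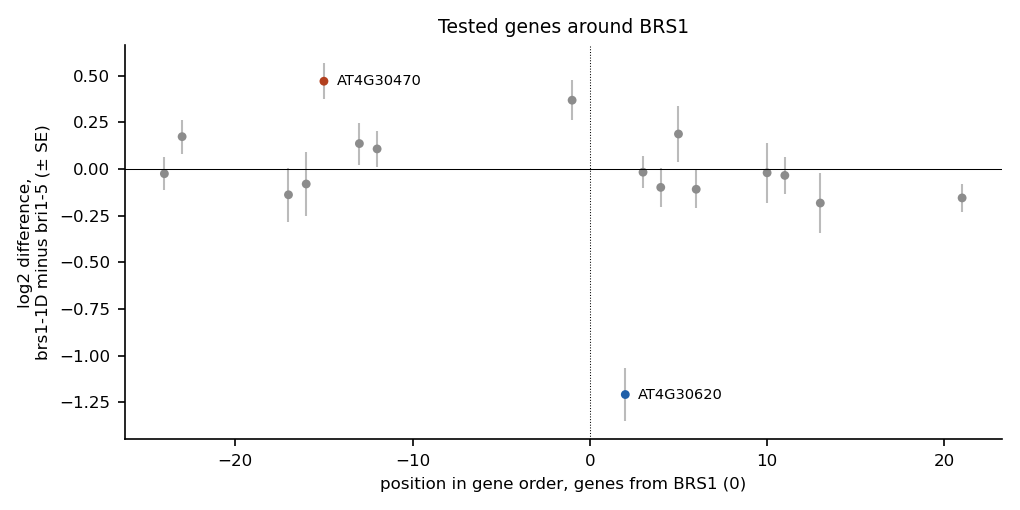
Log2 difference, brs1-1D minus bri1-5 (vertical axis, with SE), of the 17 tested genes within 25 genes of BRS1, by position in gene order (horizontal axis, BRS1 at 0). AT4G30620 (-1.21) and AT4G30470 (0.47) are called, and the others (grey) are not.

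Further falls concerned loci without a symbol. AT1G36940 read 5.05, 5.15 and 4.99 in brs1-1D, against 5.75, 5.83 and 5.92 in bri1-5 (-0.77 ± 0.08, adjusted p = 2.16e-04). AT1G44830 read 5.91, 6.18 and 6.20 in brs1-1D, against 6.86, 6.78 and 6.96 in bri1-5 (-0.77 ± 0.10, adjusted p = 0.00102). AT4G28703 read 4.65, 4.97 and 4.79 in brs1-1D, against 6.02, 5.43 and 5.74 in bri1-5 (-0.92 ± 0.16, adjusted p = 0.00925). All 3 had no overlap between genotypes and were called in every alternative fit that gave a value. AT3G23880 fell by 0.95 ± 0.19 on the log2 scale, a call lost without bri1-5 replicate 1 or 3 or brs1-1D replicate 2 (adjusted p up to 0.0784). The fall of AT5G18430 lay at the bottom of the scale, where brs1-1D arrays read 3.12 to 3.48 and no bri1-5 array read clearly above 4, and with values under 4 set to 4 its adjusted p was 1. AT3G01260 (-0.80), AT1G06830 (-0.77), AT4G34220 (-0.57) and AT2G29310 (-0.57) were called whichever of the 6 arrays was left out. AT3G19850 (-0.83), AT4G01460 (-0.78), AT1G62500 (-0.72), AT1G67865 (-0.66), AT5G22580 (-0.55) and AT4G19530 (-0.55) were not, with adjusted p up to 0.149 (AT4G19530). The cytochrome P450 gene CYP71B24 (-0.54 ± 0.10) was the only call among 16 tested CYP genes (0.534% called lower over all tested probe sets). Its adjusted p rose to 0.0567 when brs1-1D replicate 3 was left out, so it was then not called. Of the 16 differences 10 were above 0 and 6 below, with a median of 0.03.

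Transporter genes moved in both directions. These and the genes of the next paragraph are every other called gene with a symbol, and were chosen after their values were seen. SWEET11, a sucrose exporter of phloem cells, read 10.04, 10.07 and 10.08 in brs1-1D, against 9.36, 9.61 and 9.49 in bri1-5. The lowest brs1-1D array lay 0.43 above the nearest bri1-5 array, and the rise was 0.58 ± 0.09 (adjusted p = 0.00353), called whichever array was left out. The related sugar carrier gene SWEET1 fell, reading 5.79, 5.90 and 6.14 in brs1-1D, against 6.31, 6.59 and 6.51 in bri1-5 (-0.53 ± 0.13, adjusted p = 0.0498). The glucosinolate transporter gene GTR1 rose by 0.67 ± 0.15 (7.24 to 7.48 in brs1-1D, against 6.58 to 6.93 in bri1-5), while GTR2 fell by 0.36 ± 0.08 on the log2 scale (7.79 to 7.84 in brs1-1D, against 8.12 to 8.30 in bri1-5). Each of these last 3 calls was lost without most single arrays, with adjusted p up to 0.139 for SWEET1, 0.103 for GTR1 and 0.114 for GTR2, and SWEET1 also lost its call under 5 other settings.

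The other rises among genes with a symbol were those of IRX15-L, a gene of xylan synthesis (0.61), the asparaginase gene ASPGB1 (0.59), SHN3, an AP2-domain regulator of the cuticle (0.54), SUFE2, of iron-sulfur cluster assembly (0.48), the ATP sulfurylase gene APS3 (0.42), the lectin gene EULS3 (0.41) and the chloroplast nucleotide carrier gene TAAC (0.37). The other falls were those of PR-1-LIKE (-0.52), the beta-glucosidase gene BGLU44 (-0.45), SPT, a bHLH regulator of growth (-0.45), PRA1.G2 (-0.43) and the transcription factor gene NAC014 (-0.42). PRA1.G2 and BGLU44 were called whichever of the 6 arrays was left out. Each of the others lost its call without 4 or more of the 6 arrays, with adjusted p up to 0.151 (SUFE2).

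Several genes that rose in brs1-1D were lower in bri1-5 than in WS2. The comparisons of brs1-1D and of WS2 with bri1-5 share the bri1-5 arrays, so brs1-1D was also set against WS2 directly. That comparison in turn reuses the brs1-1D arrays by which the rises were chosen. Its calls therefore follow in part from the choice and are no separate support. Of the 188 called rises, 114 were also called higher in brs1-1D than in WS2. Over all 15912 tested probe sets 20.4% were called in that comparison in either direction, and 1735 were called higher in brs1-1D. JAL23 averaged 7.10 in brs1-1D and 7.40 in WS2, a difference of -0.31 ± 0.27 that was not called. For OPCL1 the difference from WS2 was -0.10 ± 0.15 and for GTR1 -0.12 ± 0.15, also not called. APS3 averaged 7.26 in brs1-1D and 6.84 in bri1-5, with 8.58 in WS2, and brs1-1D lay below WS2 by a called difference of -1.32 ± 0.10. Between bri1-5 and WS2 17.6% of tested probe sets were called, JAL23 (-1.45), OPCL1 (-0.87), GTR1 (-0.78) and APS3 (-1.74) among them. APS3 (0.86) and OPCL1 (0.59) were also called higher in bak1-1D than in bri1-5, while JAL23 (0.18) and GTR1 (0.40) were not.

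Markers of single cell types were few on the named part of the array. The root hair genes EXPA7 and EXPA18 were the 2 tested of 9 root hair markers. EXPA7 read 5.54, 5.40 and 5.55 in brs1-1D, against 4.73, 4.66 and 5.22 in bri1-5 (0.63 ± 0.16, adjusted p = 0.0517, or 0.044 with the replicate block). EXPA18 differed by 0.33 ± 0.14 (adjusted p = 0.257), so neither was called without the block. The guard cell lineage gene SPCH (-0.14) and the mitotic kinase genes AUR1 (0.02) and AUR2 (0.12) were not called, nor were the photosynthesis genes LHCB4.2, RCA and PSAE1 (median -0.05). In whole seedlings a change in the number of cells of a type and a change in RNA per cell cannot be told apart. The part of root hair cells in the other results was not tested.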

How the data were processed

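Expression was measured on 15 single-channel ATH1 arrays, 3 for each of 5 genotypes. The authors deposited log2 expression values per probe set, made with GCRMA per the submitters' processing notes; no version or settings are stated in the labels. Replicate numbers came from the sample titles, because the descriptions give all arrays of brs1-1D the same number. No counts stand behind array values, so the number of arrays limits precision.

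The platform's gene table listed 1 gene for 13513 probe sets, of which 13436 matched a RefSeq gene table (TAIR10.1), used for names and gene order only, and several genes for 503. Of the tested probe sets 8661 had 1 gene and 6937 none.

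The model had a mean for each genotype and used limma 3.58.1 (R 4.3.3; lmFit, eBayes without trend) on the 15 arrays, with 10 residual degrees of freedom, and p-values were adjusted over all 15912 tested probe sets. The fit was tested on simulated data. Named are the 25 largest rises and 20 largest falls among called probe sets with 1 gene, called members of the gene lists and families, the 4 largest rises and 3 largest falls with no listed gene, and the 5 nearest tested genes on each side of BRS1. Members and lists were chosen with earlier results of these data known. Lists are described by counts and medians, with no list test.

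After genotype means were taken off, brs1-1D and bri1-5 arrays of the same number correlated at 0.187, 0.159 and 0.191, against -0.170 to -0.006 for different numbers. With the means taken off, positive values for the same number push the others towards negative values, which are therefore not separate evidence. On the same-number values the numbers were taken to pair the samples, and the replicate block was run as the paired alternative. Calls, SEs and p-values in the text come from the unpaired fit and leave this pairing out, unless the block or another alternative is named. Other alternatives were the 6 arrays alone, other filters and scalings, a floor, an intensity trend, array weights and leaving out each array.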

Additional observations from a re-analysis of the deposited data

How the results depend on the processing

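Of the 74 called probe sets named in the text, 0 changed direction under any alternative, 24 stayed called under every alternative that gave a value, 51 under every alternative other than leaving out an array, and 27 without any 1 of the 6 arrays. The paired fit with a replicate block over 15 arrays called 410 probe sets, of which 262 were among the 273, and array weights called 457 (261 of them). The replicate block ended the calls of AT1G47400 and JAL23 and called AT4G30600, PYE, UGT73D1, scpl31 and EXPA7, as given above, with EXPA15 (0.0468) and CYP78A9 (0.0442) the only other list members to change. The block in the 6 arrays alone kept 66 of the 74 calls and ended those of GSTU20, AT5G53710, 259329_at, SHN3, EULS3, TAAC, GTR2 and NAC014. That fit called 7 of 15 hypoxia and 4 of 5 iron genes, and 400 of all 15912 tested probe sets. Leaving out 1 of the 6 arrays gave 112 to 282 calls for brs1-1D against bri1-5, 21 to 37 of them at least 2-fold, and 148 to 375 against bri1-1D, 762 to 1299 against bak1-1D and 2592 to 3239 against WS2. Against bri1-1D 346 were called, or 196 with array weights. Other settings gave 235 to 400 calls, with the 6 arrays alone 236, of which 165 were among the 273. The share of higher calls was 68.9%, and 58.1% without bri1-5 replicate 2 and 74.4% with median centring. The uncalled difference of AT4G30630 (-0.02) changed sign to 0.0011 with quantile normalization, and ran from -0.079 to 0.0303 with 1 array left out. The causes were not tested. The filter at log2 above 6 gives no value for probe sets below it.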

Other observations

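Several probe sets that rose in brs1-1D were also high on a single bri1-1D array. AT1G10585 read 4.94 on bri1-1D replicate 1, against 3.48 and 3.49 on the other bri1-1D arrays, and 264415_at read 7.04 there, against 4.85 and 5.28. AT5G05600 read 8.23 on that array, against 7.37 and 7.07, and UGT76E12 read 4.34, against 3.35 and 3.43. The differences of brs1-1D from bri1-1D were not called for these 4, at 1.02 ± 0.32, 0.79 ± 0.37, 0.44 ± 0.21 and 0.84 ± 0.23. AT1G10585, 264415_at, AT5G05600 and UGT76E12 were called higher in brs1-1D than in bak1-1D and WS2. Among the array controls, the probe set for 25S ribosomal RNA lay between 6.24 and 7.13 in brs1-1D and between 7.01 and 7.68 in bri1-5 (-0.53 ± 0.28). Its p adjusted over the control probe sets was 0.999, and its part in the results was not tested.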
